A study of Caenorhabditis elegans with 2 samples.

Results

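Binding of CEH-39 was examined at 37 broadly expressed neuronal genes of Caenorhabditis elegans, out of 19973 protein-coding genes on the nuclear chromosomes. The genes were taken as a named class, the machinery of the synaptic vesicle cycle, of dense-core vesicles and of axonal transport, by a rule that uses no measured value, and the list was drawn up with earlier results of these data known. All 37 names matched the annotation, and no gene was dropped for low values. For each gene, summits of binding peaks were sought from 2000 bp upstream to 200 bp downstream of any transcript start, called the start window here, and in introns outside that window.

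The data came from ChIP-seq, in which chromatin is immunoprecipitated with an antibody and the recovered DNA is sequenced. There was 1 group of 2 biological replicates, with no treated and untreated arms. Both replicates were whole embryos of mixed stage and mixed sex of strain OP169, which carries the unc-119(ed3) mutation on chromosome III and wgIs169, an integrated transgene for CEH-39 fused to eGFP. The tagged protein is thus made from a transgene, and each list pools every embryonic cell type, so a site bound in few cells and a site bound weakly in many cannot be told apart. Sequencing depth is unknown, because peak lists and not read counts were used. Peak lists hold no expression values, so the neuronal label of the genes could not be checked in these samples.

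CEH-39 belongs to the ONECUT branch of the CUT homeobox proteins, which bind DNA through a cut domain and a homeodomain, and ATCGAT is the palindromic core recognised by ONECUT proteins. In C. elegans, CUT homeobox factors as a class are known to act together on genes that all neurons express. Neurons release transmitter when SNARE proteins on the vesicle and on the plasma membrane pair, after the vesicle has been carried along the axon by kinesin, docked at the active zone and primed. The membrane is then recovered by endocytosis, while neuropeptides travel separately in dense-core vesicles.

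CEH-39 peaks lay at the starts of 7 of the 37 genes and in the introns of none. The 7 genes were nsf-1 and snb-1 of the fusion machinery, syd-2 of the active zone, and unc-16, unc-33, unc-51 and unc-76 of axonal transport and axon growth. These calls used the authors' set of 1244 peaks thresholded by the irreproducible discovery rate (IDR), a measure of how reproducible peak ranks are. Ranks given below are by signal value and not by agreement of replicates. The pooled list, made from both replicates, and the replicate 1 list held 30000 entries each, and the replicate 2 list 27014. Membership of the set did not require a peak in each replicate list. Of the 1244 peaks, 1238 overlapped a peak listed in replicate 1 and 1182 a peak listed in replicate 2. The 7 genes were 18.9% of the 37, with a 95% exact (Clopper-Pearson) interval of 7.96% to 35.2%. Of all protein-coding genes, 8.3% had an IDR summit in the start window. The lower end of that interval lies below the background. The intervals here cover counting error only. In introns, 0 of 37 genes had an IDR summit (exact interval 0% to 9.49%), beside 0.511% of all genes. Taken as 3 counts of the total, a count of 0 allows a share of up to 8.11%. With start windows and introns combined, the count was again 7, beside 8.72% of all genes.

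The genes offered more sequence to search than most. Their start windows, merged over all starts, had a median length of 3146 bp and their introns 3080 bp, against 2201 bp and 610 bp over all genes. Per length, start windows held 44.6 IDR summits per Mb (interval 17.95 to 92.0) at the 37 genes and 33.6 per Mb over all genes. Of the 11 genes with a single start position, 2 had an IDR summit (snb-1 and unc-51), beside 7.15% of all such genes. Among the 26 with several start positions there were 5, beside 11.5% of all such genes.

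**Figure D1:**
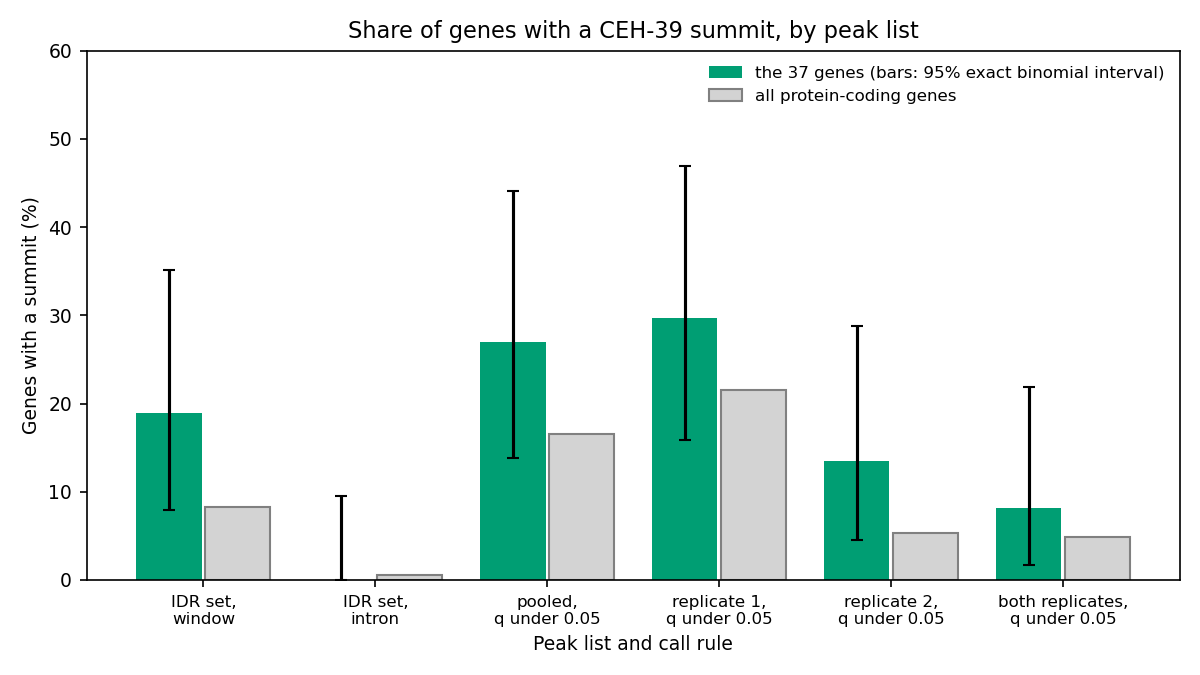
Percent of genes with a summit (vertical axis) for the 37 genes (green bars, whiskers 95% exact binomial intervals) and all protein-coding genes (grey bars), by peak list and call rule; IDR calls are split into start window and intron, and the other rules count either region. The IDR start-window share is 18.9% against 8.3%, and in each of the 6 pairs drawn the whisker reaches down to or below the grey bar's height.

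Transport and axon genes held 4 of the 7 IDR peaks, from 8 genes. UNC-33 is a collapsin response mediator protein that organises axonal microtubules, and its gene lies on chromosome IV from 3516886 to 3526602 on the plus strand. Its IDR peak, at 3515573 to 3515922, had a summit 1138 bp upstream of the nearest start and a signal value of 140, ranking 343 in the pooled list. The signal value is the authors' own score for a peak, on a scale the files do not state, and it is compared within a list only. In replicate 1 the overlapping peak had a signal value of 112 and ranked 365, and in replicate 2 it had 25.6 and ranked 785, with its summit 121 bp away. Both replicate peaks passed a q-value of 0.05. The summit also lay in the start window of tsg-101, an endosomal sorting gene on the opposite strand, 1181 bp upstream of its start.

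UNC-76, the worm FEZ protein, is a kinesin adaptor for axonal cargo. The peak at unc-76 on chromosome V, at 15071291 to 15071640, had a summit 294 bp upstream of a start and a signal value of 126, ranking 442. It ranked 467 in replicate 1 (signal 101) and 518 in replicate 2 (signal 29.4), and passed a q-value of 0.05 in both. UNC-16, the worm JIP3 scaffold, regulates transport of vesicles and organelles by kinesin. Its peak on chromosome III, at 9546019 to 9546368, lay closest to a start of all 7, with the summit 64 bp upstream and inside the annotated non-coding RNA ZK1098.13. It had a signal value of 104.5 and ranked 677, with ranks of 752 in replicate 1 (signal 81.5) and 550 in replicate 2 (signal 28.9), and it too passed in both. UNC-51 is the kinase known as ULK or Atg1, needed for axon growth and autophagy. Its peak on chromosome V, at 20005634 to 20005983, was the weakest of the 7 with a signal value of 83.2 and rank 1063, and lay 1324 bp upstream. It ranked 607 in replicate 1 (signal 90.1), whereas the overlapping replicate 2 peak ranked 6420 (signal 14.3) with its summit 293 bp away.

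The 101 bases centred on these summits are shown because they differ in which short sequences they hold, a contrast limited to these bases. They are from the RefSeq genome of assembly WBcel235 (ce11), each on the strand of its gene, 5′ to 3′. Capitals mark ATCGAT at unc-33, and GAGAGA or its reverse complement TCTCTC at the other 3. The unc-33 sequence is chrIV:3515698-3515798 on the plus strand, unc-76 is chrV:15071416-15071516 on the plus strand, unc-16 is chrIII:9546144-9546244 on the plus strand, and unc-51 is chrV:20005759-20005859 on the minus strand.
unc-33: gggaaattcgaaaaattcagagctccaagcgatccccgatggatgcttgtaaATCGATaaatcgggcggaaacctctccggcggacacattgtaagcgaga
unc-76: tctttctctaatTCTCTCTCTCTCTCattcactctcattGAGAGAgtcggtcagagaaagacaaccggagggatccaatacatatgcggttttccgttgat
unc-16: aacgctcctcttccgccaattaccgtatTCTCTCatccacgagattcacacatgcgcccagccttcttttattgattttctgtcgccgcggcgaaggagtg
unc-51: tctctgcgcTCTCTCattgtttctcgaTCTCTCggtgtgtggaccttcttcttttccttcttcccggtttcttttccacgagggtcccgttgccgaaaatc
The ATCGAT at unc-33 lay 4 bp from the summit. At unc-76 there were 6 matches to GAGAGA or TCTCTC, of which the TCTCTC matches overlap in 1 run and the GAGAGA stands apart. Over the whole peak, unc-33 also held 7 matches to GAGAGA or TCTCTC, the nearest 49 bp from the summit. The unc-51 peak held 2 ATCGAT, the nearest 51 bp from the summit, while the unc-76 and unc-16 peaks held 0.

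Below the IDR threshold, unc-119 had a pair of pooled peaks with a q-value under 0.05. UNC-119 is a lipid-binding chaperone needed for nervous system development. The stronger peak, on chromosome III at 10906378 to 10906727, had a summit 97 bp downstream of a start, inside an intron, and a signal value of 71.0 with rank 1441. It ranked 1129 in replicate 1 (signal 64.9) and 26685, near the end of the list, in replicate 2 (signal 8.82), where the overlapping summit was 231 bp away. The other, at 10905169 to 10905518, lay 1112 bp upstream of the nearest start, also inside an intron, with a signal value of 59.6 and rank 1908, and ranked 2237 in replicate 1 (signal 42.6) and 7972 in replicate 2 (signal 13.5). The strain is mutant for this gene, and the labels do not say whether the transgene carries a copy of it. The part of that in these peaks was not tested. Matches to GAGAGA or TCTCTC within 50 bp numbered 3 at the stronger summit, whose sequence is not shown, and 6 at the upstream one. The sequence at the upstream summit is shown for its runs of TCTCTC, in capitals, and is chrIII:10905294-10905394 on the plus strand.
unc-119: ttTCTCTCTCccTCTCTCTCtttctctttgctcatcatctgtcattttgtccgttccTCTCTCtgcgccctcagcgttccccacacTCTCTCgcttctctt

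The other transport genes were weaker. UNC-104, the KIF1A kinesin that carries synaptic vesicle precursors, had the weakest best peak of its role, with a pooled signal value of 20.3 and rank 17141. All 8 transport genes had at least 1 pooled summit, and the median rank of their best pooled summit was 1252. The best-ranked pooled summits of the other roles had median ranks of 6481.5 for the 6 listed fusion genes, 10958 for the 6 listed active zone genes, 13443 for the 3 listed endocytosis genes and 5640.5 for the 6 listed dense-core vesicle genes. These medians leave out genes with no pooled summit and are not set to the same searched length.

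**Figure D2:**
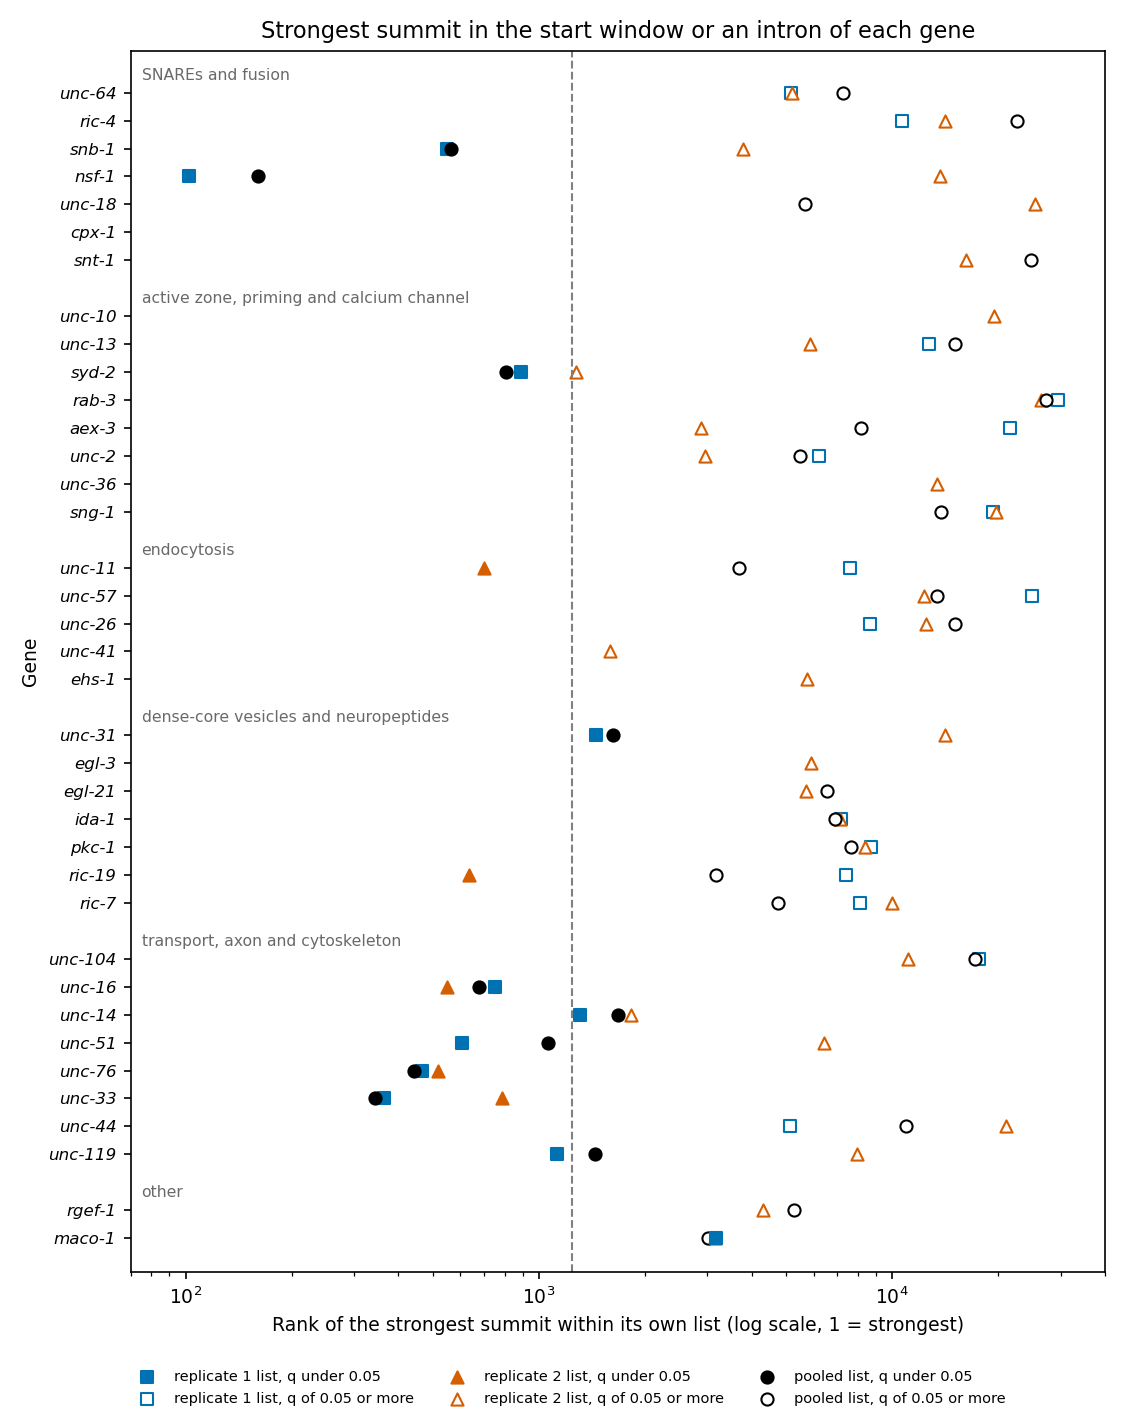
Rank of the best summit in the start window or introns of each of the 37 genes (horizontal axis, log scale, 1 is the strongest peak) in the pooled and both replicate lists, with genes grouped by role, filled symbols for a q-value under 0.05 and a dashed line at rank 1244. A gene's best summits in different lists need not overlap. Ranks run from 160 for nsf-1 to 27330 for rab-3 in the pooled list.

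The fusion machinery held 2 IDR peaks among 7 genes, beside 8.3% of all genes. SNB-1 is synaptobrevin, the vesicle SNARE, and its gene lies on chromosome V from 6655562 to 6656501 on the minus strand. The peak at 6656732 to 6657081 had a summit 406 bp upstream, a signal value of 113 and rank 565. It ranked 550 in replicate 1 (signal 93.9) and 3773 in replicate 2 (signal 16.5), where it missed a q-value of 0.05. The summit was also in the start window of syx-18, a syntaxin gene on the same strand, 1458 bp upstream of its start. The 101 bases at the snb-1 summit, chrV:6656857-6656957 on the minus strand of WBcel235, are shown for the single ATCGAT in capitals, 25 bp from the summit.
snb-1: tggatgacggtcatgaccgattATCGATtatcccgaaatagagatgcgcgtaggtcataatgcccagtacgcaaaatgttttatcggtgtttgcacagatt

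In the active zone group, 1 of 8 genes had an IDR peak, beside 8.3% of all genes. SYD-2 is liprin-alpha, a scaffold that assembles presynaptic active zones. Its peak on chromosome X, at 10555518 to 10555867, had a summit 454 bp upstream, a signal value of 96.6 and rank 807, with ranks of 893 in replicate 1 (signal 74.7) and 1271 in replicate 2 (signal 22.1). The summit lay within the annotated non-coding RNA F59F5.9. The remaining genes of the group were far weaker. UNC-2, a presynaptic calcium channel subunit, had 23 pooled summits, the most of any of the 37 genes, over 8 start positions and 33321 bp of intron, and the strongest of those in its start windows had a signal value of 26.5. RAB-3, the vesicle GTPase, had the weakest best peak of all, with a pooled signal value of 16.2. UNC-10, the RIM scaffold, and UNC-36, a calcium channel subunit, had no pooled summit.

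The strongest of the 37 genes in the pooled list was nsf-1, which encodes the ATPase that takes spent SNARE complexes apart. Its peak on chromosome I, at 7772512 to 7772861, had a summit 456 bp upstream, a signal value of 190 and rank 160. In replicate 1 it ranked 102 with a signal value of 186, but in replicate 2 the overlapping peak ranked 13678 with 11.4 and a −log10 q-value of 0.0384. The 2 replicates were thus far apart in rank at this gene. The summit also lay 729 bp upstream of adr-1, an RNA-editing family gene on the opposite strand. The weakest listed fusion gene was snt-1, which encodes the calcium sensor synaptotagmin, with a pooled signal value of 17.1 and rank 24783. Complexin gene cpx-1 was the only one of the 37 with no summit in any of the 4 lists.

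All 7 IDR peaks were 350 bp wide, lay outside protein-coding gene bodies, and were nearer to the start of their own gene than to any other protein-coding start. They were split between the replicates. All 7 ranked among the strongest 1244 peaks of replicate 1, but 3 of 7 (unc-16, unc-33 and unc-76) among those of replicate 2. Over the whole IDR set these shares were 88.9% and 57.5%. Median ranks at the 7 genes were 550 in replicate 1 and 1271 in replicate 2, against 618.5 and 790 over all IDR peaks listed.

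**Figure D3:**
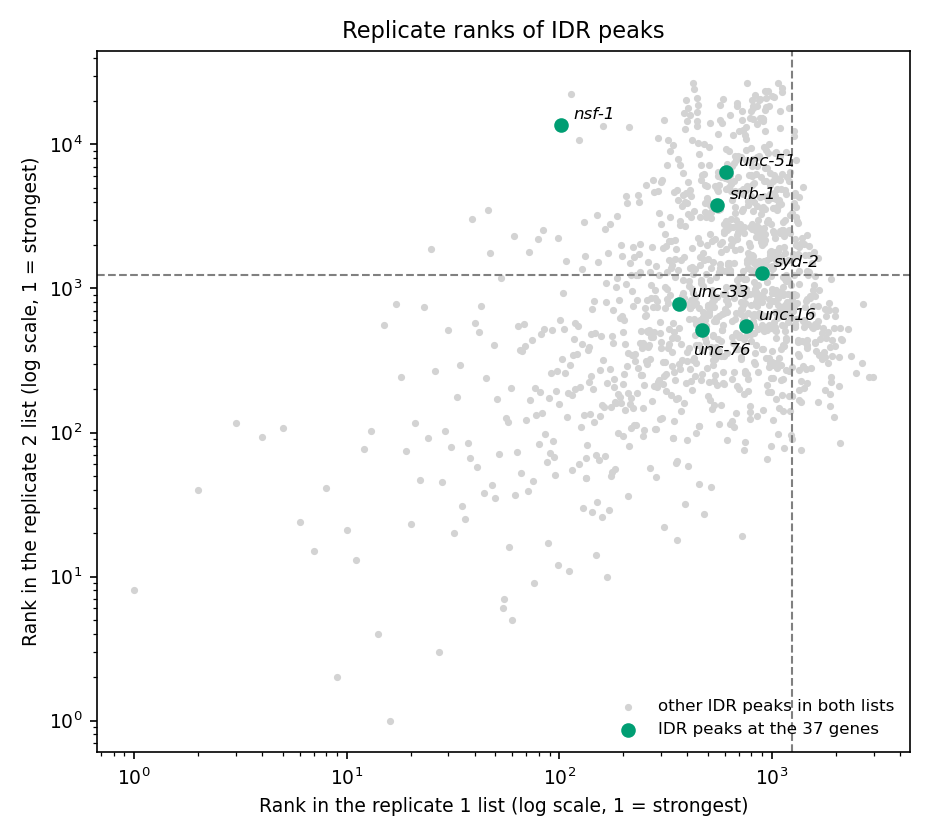
Rank of each IDR peak in the replicate 1 list (horizontal axis) and the replicate 2 list (vertical axis), both log scales with 1 the strongest. Grey points are other IDR peaks found in both lists, green points the 7 peaks at the neuronal genes, and dashed lines mark rank 1244. At nsf-1 the ranks are 102 and 13678, while unc-33, unc-16 and unc-76 lie within both dashed lines.

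Relaxed thresholds added a few genes. In the pooled list, 10 of the 37 genes (27.0%, interval 13.8% to 44.1%) had a summit with a q-value under 0.05 in a start window or intron, beside 16.6% of all genes. The added genes were unc-119, unc-14 and unc-31. UNC-14, a partner of UNC-51 in axon growth, had a peak 163 bp upstream with a signal value of 64.8 and rank 1672, which ranked 1307 in replicate 1 (signal 59.5) and 15501 in replicate 2 (signal 10.95). Another replicate 2 summit in the same start window ranked 1819 (signal 20.0). UNC-31, the CAPS protein that primes dense-core vesicles, had the only called intronic peak outside a start window, on chromosome IV at 12781998 to 12782347. It had a signal value of 66.0 and rank 1617, ranking 1449 in replicate 1 (signal 55.6) and 14085 in replicate 2 (signal 11.3). Its summit lay within the annotated small nuclear RNA gene F07C6.5, inside unc-31. The peaks of all 3 genes ranked higher in replicate 1 than in replicate 2.

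The replicate lists differed in which genes passed. In replicate 1, 11 of the 37 genes passed a q-value of 0.05, beside 21.5% of all genes, and in replicate 2 there were 5, beside 5.34%. The lists themselves differed in size at this threshold, with 3958 and 790 peaks under it. Genes passing in both were unc-16, unc-33 and unc-76, or 8.11% (interval 1.70% to 21.9%) beside 4.91% of all genes. Over all protein-coding genes, 4299 passed in replicate 1, 1067 in replicate 2 and 981 in both. When the strongest 1244 peaks of each replicate were taken, 8 genes had one in replicate 1 (21.6%, interval 9.83% to 38.2%), beside 8.68% of all genes, and 5 in replicate 2 (13.5%, interval 4.54% to 28.8%), beside 7.77%. The replicate 1 interval lies above its background and the replicate 2 interval includes it. These backgrounds are not set to the same searched length, which was larger at the 37 genes. The same 3 genes were shared, 37.5% of the first set and 60% of the other. The matching overlap over all genes was not counted for these sets, so these shares are not a trait of the 37 genes.

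One gene passed in replicate 1 alone outside the pooled calls, and a pair passed in replicate 2 alone. MACO-1, a macoilin membrane protein of neurons, had a peak 679 bp upstream that ranked 3171 in replicate 1 (signal 32.1) and 3006 in the pooled list (signal 43.96). The overlapping replicate 2 peak ranked 3155 (signal 17.3), with its summit 220 bp away, 899 bp upstream of the start. UNC-11, the AP180 clathrin adaptor, had a replicate 2 peak ranking 700 (signal 26.7) whose summit was 1754 bp upstream, in the 3′ UTR of ubr-1, with a pooled rank of 3682 and no overlapping replicate 1 peak. RIC-19, the worm ICA69 protein of dense-core vesicle maturation, had a replicate 2 peak 140 bp upstream ranking 635 (signal 27.6), with a pooled rank of 3167. In replicate 1, a summit 139 bp upstream ranked 26114 (signal 10.4), and a stronger overlapping peak, with its summit 137 bp downstream of the start, ranked 7399 (signal 19.4). The replicate 2 summit was also 288 bp upstream of pmlr-1 on the opposite strand. The unc-11 and ric-19 summits lay 25.7 kb apart on chromosome I.

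**Figure D4:**
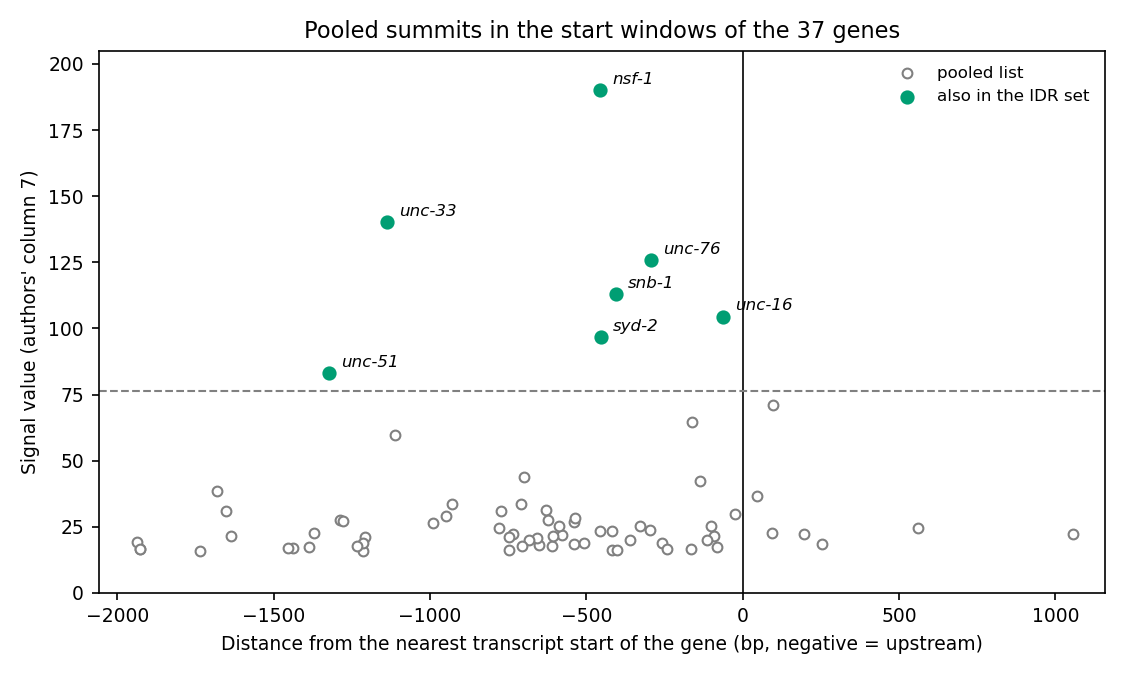
Signal value (vertical axis, authors' column 7) of the 73 pooled summits in the start windows of the 37 genes, against distance from the gene's nearest transcript start (horizontal axis, bp, negative upstream). Filled points are the 7 IDR peaks, and the dashed line marks the lowest IDR signal value of 76.5. The IDR summits lie 64 to 1324 bp upstream, and the strongest summit below the line has 71.0.

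Among the 30 genes with no IDR summit, 24 had a pooled summit, with best signal values from 16.2 to 71.0 and a median of 28.5. The other 6 were cpx-1, unc-10, unc-36, the endocytic genes unc-41 and ehs-1, and egl-3, the proprotein convertase that cuts neuropeptide precursors. The nearest IDR summit to a start of these 30 genes, in either direction, lay 1884 to 305358 bp away (median 22718 bp). The closest lay downstream of a start of unc-57, the endophilin gene. No endocytosis gene of 5 had an IDR summit, and none of 7 dense-core vesicle genes did, beside 8.72% of all genes. With so few genes, taking 3 counts as the limit allows shares of up to 60% and 42.9%, so these counts of 0 are uninformative. The strongest of those groups in the pooled list were unc-11 (rank 3682) and unc-31, and the weakest listed were unc-26, the synaptojanin gene, at rank 15038, and pkc-1, a protein kinase C of neuropeptide release, at rank 7636. RGEF-1, a Ras exchange factor used as a pan-neuronal marker, had its best pooled summit in an intron at rank 5271.

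Listed summits of any strength were common at these genes. The pooled list was deposited as peaks and background together, and 2698 of its 30000 entries had a q-value under 0.05. A listed summit of any strength is thus not by itself a sign of binding. A pooled summit of any strength lay in the start window of 28 of the 37 genes (75.7%, interval 58.8% to 88.2%), beside 55% of all genes. With introns added there were 31 (83.8%, interval 68.0% to 93.8%), beside 60.7%. By start window, replicate 1 gave 25 genes (67.6%, interval 50.2% to 82.0%), beside 52.5%, and replicate 2 gave 30 (81.1%, interval 64.8% to 92.0%), beside 56.3%. Apart from that of replicate 1, these intervals lie above the background, which is not set to the same searched length. In all, the 37 genes held 138 pooled summits, 73 in start windows and 65 in introns. Of these, 11 had a q-value under 0.05 and 127 did not. Per length, pooled summits in start windows numbered 465.6 per Mb (interval 364.98 to 585.5) at the 37 genes and 363.7 per Mb over all genes. In introns they numbered 359.8 per Mb (interval 277.7 to 458.5) against 319.6 per Mb. The intron interval includes the value over all genes, and the start window interval begins just above it.

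The median of the best pooled signal value in the start window, counting a gene with no summit as 0, was 23.4 at the 37 genes (interval of the median 18.7 to 33.7) and 17.2 over all genes. Among genes with a summit, the medians were 29.4 and 28.2. The median percentile of the 37 genes among all genes was 64.9 in the pooled list, 64.8 in replicate 1 and 65.4 in replicate 2. Both the share of genes with a summit and the length searched were larger for the 37 genes than over all genes.

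**Figure D5:**
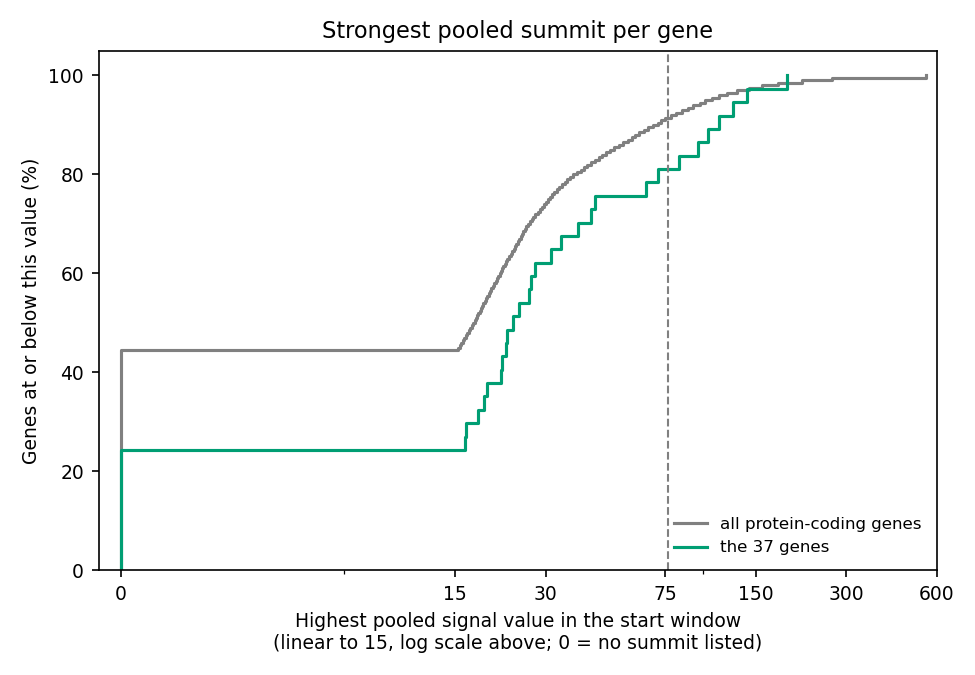
Cumulative percent of genes (vertical axis) by best pooled signal value in the start window (horizontal axis, linear up to 15 and log scale above), for the 37 genes and for all protein-coding genes, with genes that have no summit at 0 and a dashed line at the lowest IDR signal value of 76.5. The medians are 23.4 and 17.2, and the curves meet near the right end.

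Within 50 bp of the 7 summits, ATCGAT occurred at 2 (28.6%, interval 3.67% to 71.0%), snb-1 and unc-33, beside 17.4% of all IDR summits and 5.76% of all pooled summits. Within 100 bp it occurred at 4, with syd-2 and unc-51 added, beside 28.9% of all IDR summits. The related ATTGAT, counted on both strands, occurred within 50 bp at unc-16 alone, beside 5.87% of all IDR summits. Other hexamers, taken from earlier results of these data, were counted on both strands in the same windows. GAGAGA was present at 3 of 7, beside 25.3% of all IDR summits and 7.42% of pooled ones, and GAGCGC at nsf-1 and unc-51, beside 17.1% and 2.65%. ACGCAG was at 0 of 7 (interval 0% to 40.96%), beside 19.5% and 3.57%. Within 100 bp, GAGAGA was at 5 of 7, beside 38.9% of all IDR summits, ACGCAG at 3 of 7, beside 28.0%, and GAGCGC at 2 of 7, beside 22.03%. GC content within 50 bp ran from 43.6% to 56.4% at the 7 summits, with a median of 49.5%, against 47.5% over all IDR summits.

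Most ATCGAT sequences at these genes carried no peak. The hexamer occurred in the start windows of 27 of the 37 genes (73.0%), beside 54.1% of all genes, at 0.389 per kb against 0.394 per kb. Of its 61 occurrences, 6 lay in an IDR peak, 16 in a pooled peak of any strength, 6 in a replicate peak alone and 39 in no peak of any list. All 7 genes with an IDR summit had at least 1 ATCGAT in the start window, as had 20 of the 30 without.

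Other genes of the same pathways were counted from separate lists. These 58 further genes were listed by pathway and not by expression in neurons. Of them, 9 had an IDR summit in the start window (15.5%, interval 7.35% to 27.4%), beside the 8.3% of all genes. None of 16 transmitter identity genes, which make, load or take up a given transmitter, had one (interval 0% to 20.6%). In axonal transport 3 of 11 had one, namely the dynactin gene dnc-1 (signal 83.2), the beta-spectrin gene unc-70 (94.4) and sam-4 (276), whose summit lay nearer to the start of zyg-1. In endocytosis 3 of 6 had one, namely dpy-23 (132) and apb-1 (128) of the AP2 clathrin adaptor and the intersectin gene itsn-1 (93.2), nearer to uaf-2. Of 15 other active zone and fusion genes 2 had one, elks-1 (78.9) and the cysteine string protein gene dnj-14 (104.4), nearer to glit-1. Of 10 other dense-core vesicle genes 1 had one, unc-108, the RAB2 gene (158). The replicates were unlike each other in rank at several of these 9 peaks. In replicates 1 and 2 the unc-108 peak ranked 311 and 246, dnj-14 ranked 569 and 18896, and dnc-1 ranked 925 and 6866, while the unc-70 peak ranked 567 in replicate 1 and had no overlapping peak in replicate 2. Among 6 CUT homeobox genes matched, ceh-38 (268) and ceh-39 itself (278) had an IDR summit (33.3%, interval 4.33% to 77.7%). The strain carries a transgene for CEH-39. Its part in the ceh-39 peak, whose summit lay 1805 bp upstream of a start, was not tested.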

How the data were processed

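eGFP-CEH-39 ChIP-seq peaks of 2 biological replicates were used as 4 deposited ce11 lists: the IDR set, the pooled list and 1 list per replicate. Per the deposited description files, the replicate lists came from separate alignments set against a control, the pooled list from both alignments, and the IDR set from these. The control was not analysed here. Names of the aligner and peak caller were not given in the sources used here. Within a list, the authors' signal value (column 7) ranks peaks, and its scale is not given. The deposited −log10 q-value (column 9) was not recomputed.

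Summits (column 10) were assigned to genes with Ensembl release 115 of WBcel235, which ce11 names. A summit may count for several genes. Peaks were matched between lists by an overlap of at least 1 bp. Sequence came from the RefSeq WBcel235 genome. With 1 group there was no contrast and no test: counts stand beside the same counts over all protein-coding genes. The genes, lists, hexamers and alternatives were chosen with earlier results of these data known. Named genes were every member with an IDR summit, or with a pooled or replicate summit under a q-value of 0.05, the strongest and weakest of each role, and the gene nearest to each summit. Others were named after their values were seen: unc-2, unc-57, genes without a pooled summit, and called genes of the other lists. In the CUT list, ceh-44 matched no gene name. In simulated data, 200 of 200 planted summits were sorted correctly as inside or outside the start windows of their own gene. The same window rule set the right answer, so this checks the code and not the choice between neighbouring genes. Alternatives changed the list, threshold, window, assignment and motif distance. Lists in ce10 were not used. Python 3.11.15, numpy 2.4.6, pandas 2.3.3, scipy 1.17.1 and matplotlib 3.10.9 were used. Exact intervals are at 95% and cover counting error only.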

Additional observations from a re-analysis of the deposited data

How the results depend on the processing

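Of 30 alternatives for counts of genes, 24 gave a count within 1.5 times of that reported and 6 did not. The median percentile moved by more than 1 SD between replicates under 2 of 3 alternatives. That SD rests on 2 replicates, whose own values are 2 of the 3 alternatives, so this tally says little. For the motif share and the median signal, 3 of 3 stayed within the reported interval. The motif interval, 3.67% to 71.0%, is wide enough that staying within it says little too. The strongest 622 IDR peaks kept 4 genes in the start window and 4 with introns (nsf-1, snb-1, unc-33 and unc-76), beside 4.38% and 4.57% of all genes. Doubling the number of peaks to 2488, or taking pooled peaks under a q-value of 0.05, put 1 gene, unc-31, among those with an intronic summit, in place of 0, beside 1.10% and 1.22% of all genes. At a q-value of 0.01, 0 genes passed in both replicates, in place of 3, beside 1.77% of all genes. With a window of 1000 bp upstream the median percentile was 70.6. That window, or 500 bp, kept 5 genes without unc-33 and unc-51, beside 6.46% and 5.34% of all genes. Counting a summit only for the nearest start kept 7, beside 5.002%. With 1 replicate left out, the list of the other was used alone, and the shares of all genes moved too. Start windows then gave 5 to 8 genes, beside 7.11% to 8.26% of all genes. With introns added there were again 5 to 8, beside 7.77% to 8.68%, and in introns by themselves 0 to 0. Under a q-value of 0.05 in the single replicate list, 5 to 11 genes passed, beside 5.34% to 21.5% of all genes. The median percentile ran from 64.8 to 65.4. The lower counts were without replicate 1, where nsf-1, snb-1, syd-2 and unc-51 were not called and ric-19 and unc-11 were. ATCGAT was at 14.3% of the 7 summits within 25 bp and 57.1% within 100 bp. No paired analysis was possible because there was 1 group. Depth is unknown, so how it limits these calls was not tested.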
